A study of Mus musculus with 4 samples.

Results

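Hcn2, Hcn3 and Hcn4 encode subunits of the hyperpolarization-activated cyclic nucleotide-gated (HCN) channels, the pacemaker channels of heart and nerve. Their mRNA was examined in single dorsal root ganglion (DRG) neurons of mice after nerve injury or sham surgery. The 3 genes were taken by symbol from the 31053 genes of the deposited count matrices. They were not picked by their measured values, but earlier results of these data were known. Other genes of the family were not analysed here.

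HCN channels open when the membrane becomes more negative than rest and let sodium and potassium ions through, an inward current termed Ih that drives the membrane back towards threshold. Each channel is built from 4 subunits, and cyclic AMP bound to the tail of the protein eases opening, strongly in HCN2 and HCN4 and little in HCN3. In sensory neurons Ih is known to be large in fast-conducting, large-diameter cells and in cells that detect cold, and HCN2 has been studied as a driver of firing in nociceptors.

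All mice were of the PirtEGFPf strain on a C57BL/6 background and 7 to 8 weeks old. In this strain the reading frame of Pirt, a gene expressed in most DRG neurons, is replaced by a farnesylated green fluorescent protein (GFP) under the Pirt promoter. The mice used were heterozygous, so every group, controls included, carries that allele beside a wild-type one. Every cell was sorted for GFP. Chronic constriction injury (CCI), in which loose ligatures are tied around the nerve, or sham surgery was done on both sciatic nerves, and the L4-5 DRGs of both sides were taken on day 7. There was 1 library for each sex and surgery, named Male-Sham, Male-CCI, Female-Sham and Female-CCI, and each was made from 20 DRGs of 5 mice pooled before capture. Its replicates were then 1 library of males and 1 of females (n = 2 libraries per surgery), so the spread between replicates holds the difference between the sexes as well. Mice of a litter had the same surgery, so litter and surgery cannot be told apart.

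After filtering, the sham libraries held 3471 (male) and 5548 (female) cells and the CCI libraries 2947 and 3749, of which 3281, 5398, 2817 and 3637 were neurons. The unique molecular identifiers (UMIs, each standing for 1 captured mRNA molecule) summed over neurons came to between 159902783 and 189489772 per library. The median neuron held 45172, 32490, 56457 and 43527 UMIs. The libraries shared between 215 and 513 cell barcodes pairwise, 4.44% to 11.2% of the smaller library, and results that moved without these cells are given with and without them. RNA of satellite glial cells (SGCs), the glia that wrap DRG neurons, was present in the neurons and differed between surgeries: the 7 SGC markers summed to 1377 and 1706 CPM (counts per 1000000 UMIs of all genes) in sham neurons and to 926 and 1130 CPM in CCI neurons, with no marker at 0 in the sum. An alternative left out neuronal clusters in which over 80% of cells held a UMI of the SGC marker Fabp7. Beyond that, the part of glial RNA in the results was not tested.

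Neurons were grouped into clusters, and each cluster was named for the class whose markers led it, with "-like" implied in every name below. NP1 to NP3 are non-peptidergic nociceptors, PEP1 to PEP5 peptidergic neurons, PEP5 among them marked by the cold-gated channel gene Trpm8, NF1 and NF2 large myelinated neurons rich in neurofilament, and cLTMR the C-fibre low-threshold mechanoreceptors. CCI-ind are clusters led by injury genes and found mainly after CCI. A level below is the CPM of a gene, taken per library from the UMIs of all cells in the class. Because the classes were built from the same cells, differences between classes are a description and carry no test.

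Hcn2 was highest in the large myelinated and cold-sensing classes. In NF1 neurons Hcn2 stood at 82.9 CPM in Male-Sham and 72.5 CPM in Female-Sham, with a mean of 77.7 ± 7.35 CPM (SD, n = 2). PEP5 neurons followed at 58.6 and 57.7 CPM in the same libraries, then NF2 at 49.9 and 41.9 CPM and cLTMR at 35.8 and 34.0 CPM. The sham values of these 4 classes did not overlap. Their glial RNA differed: SGC markers summed to 65.8 and 170 CPM in NF1 and to 3958 and 4377 CPM in PEP5 of Male-Sham and Female-Sham. In NF2 the sums were 325 and 367 CPM and in cLTMR 390 and 1114 CPM. Nociceptor classes were lower, from 23.1 ± 0.93 CPM in PEP2 and 22.2 ± 1.31 CPM in PEP3/4, which overlapped each other, through 16.4 ± 0.63 CPM in PEP1 and 11.1 ± 1.35 CPM in NP1, to 5.66 ± 0.74 CPM in NP3 (SD, n = 2). The highest sham class mean was 13.7 times the lowest over 12 classes.

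Within these classes Hcn2 was not even. NF1 held 2 clusters. The cluster led by Pvalb, which encodes the calcium buffer parvalbumin found in proprioceptors, had 110.7 and 82.5 CPM of Hcn2 in Male-Sham and Female-Sham, and the cluster led by Ntng1 had 70.1 and 69.4 CPM. In cLTMR neurons a small cluster led by Scin reached 70.4 and 97.4 CPM in the sham libraries, against 25.5 to 40.6 CPM in the other 3 cLTMR clusters. An unnamed cluster led by Rxfp1 held 37.0 and 36.1 CPM. Because NF1 neurons also carry much RNA, they made up 4.51% and 3.06% of sham neurons in Male-Sham and Female-Sham but held 24.7% and 16.1% of the Hcn2 UMIs.

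Hcn4, the subunit with the slowest gating and the main one of the cardiac pacemaker, was concentrated in a single class. PEP5 neurons stood at 74.2 and 63.2 CPM in Male-Sham and Female-Sham and at 61.9 and 63.1 CPM in Male-CCI and Female-CCI. PEP2 stood at 15, 12.8, 15.3 and 14.4 CPM in the same libraries, next after PEP5 in all but Female-CCI, where PEP3/4 had 15.5 CPM. All other named classes lay between 2.82 and 15.5 CPM in every library, and cLTMR neurons were the lowest in sham at 3.72 and 2.82 CPM. The ratio of the highest to the lowest sham class mean was 21. PEP5 neurons were 9.11% and 9.78% of sham neurons and held 38.2% and 39.6% of the Hcn4 UMIs.

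All 3 PEP5 clusters carried Hcn4, at different levels. The cluster led by Nkx6-2 had 85.7 and 71.8 CPM in the male and female sham library and 69.9 and 70.3 CPM in the CCI libraries. One of the clusters led by Pnoc had 48.9, 51.3, 55.3 and 56.3 CPM and the other had 47.1, 36.7, 33.8 and 48.0 CPM, below the Nkx6-2 cluster in every library. PEP2 was split as well: the cluster led by Dcn had between 18.8 and 22.3 CPM and the one led by Stum between 7.68 and 10.4 CPM.

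Hcn3 varied little between classes. Its sham class means ran from 21.3 ± 2.99 CPM in PEP5 to 11.3 ± 1.45 CPM in NF2 (SD, n = 2), a ratio of 1.89, and most neighbours in that order overlapped. cLTMR neurons had 19.9, 20.6, 27.9 and 20.2 CPM across the 4 libraries and NP2 neurons 14.9, 15.5, 16.2 and 12.7 CPM. The clearest gap lay inside NF1, where the Ntng1 cluster had 18.4 and 16.6 CPM of Hcn3 in the sham libraries and the Pvalb cluster 4.91 and 4.87 CPM, the reverse of the order seen for Hcn2.

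**Figure D1:**
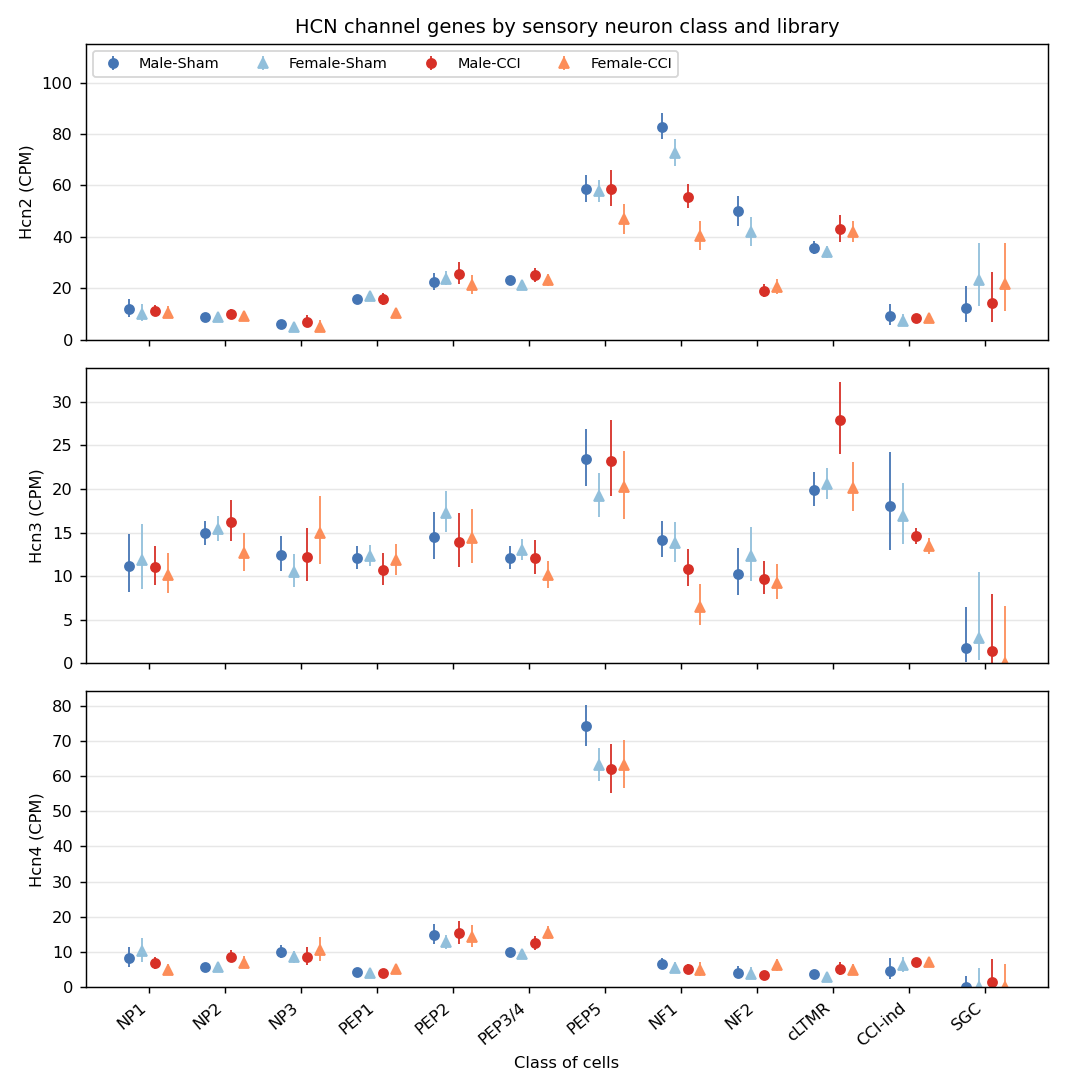
Level of Hcn2, Hcn3 and Hcn4 in CPM (vertical axes, linear, from 0) for each class of cells (horizontal axis) in the 4 libraries, with bars for the exact Poisson 95% interval of the UMI count. Hcn2 is highest in sham NF1 neurons at 82.9 and 72.5 CPM, Hcn4 stands apart in PEP5 neurons at 61.9 to 74.2 CPM, and Hcn3 lies between 6.43 and 27.9 CPM in every neuronal class.

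Counts in SGC-like cells were set beside those of neurons. SGC-like cells, which numbered 109 to 186 per library, had 14, 16, 10 and 12 Hcn2 UMIs, or 12.5, 23.3, 14.3 and 21.6 CPM, so a CPM as low as that of the NP classes was also met outside neurons. Glial cells are far shallower, with a median of 4188 to 5160 UMIs, and the Hcn2 yield was 7.53 to 11 UMIs per 100 SGC-like cells against 44.2 to 80.3 per 100 NP2 neurons. When every cell was thinned to 2000 UMIs, the share of cells with an Hcn2 UMI was 2.15% to 4.14% in SGC-like cells. In NP2, NP3 and PEP1 neurons it lay in or below that range in every library, and in NP1 and CCI-ind neurons in every library but Male-Sham (5.68% of 88 and 4.88% of 41 cells). At this depth the shares in NP2, NP3 and PEP1 were not above the range of the SGC-like cells. With so few SGC-like cells positive, it could not show whether these classes differed from them. Hcn4 had 0, 0, 1 and 0 UMIs in the SGC-like cells of the 4 libraries and Hcn3 had 2, 2, 1 and 0. Whether the Hcn2 of SGC-like cells is their own or stray RNA of neurons was not tested.

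Hcn2 and Hcn4 were met in the same PEP5 cells. At 10000 UMIs per cell, 60 of 269 Male-Sham PEP5 neurons had UMIs of both genes, 52 of Hcn2 only, 66 of Hcn4 only and 91 of neither. The counts were 88, 95, 103 and 201 of 487 in Female-Sham, 30, 29, 41 and 52 of 152 in Male-CCI, and 34, 34, 46 and 80 of 194 in Female-CCI. In NF1 neurons thinned in the same way, 7 of 141 and 8 of 156 sham cells had both, whereas 66 and 71 had Hcn2 only.

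Over the 22 neuronal clusters with at least 20 cells in each sham library, the level of a member was compared with that of every gene of at least 20 CPM by Pearson's r of log2(CPM + 1). The genes most like Hcn2 were Rabl6 (r = 0.953), Snap25 (0.940), which encodes a protein of synaptic vesicle fusion, Lpin1 (0.931), Dner (0.925) and Fam168a (0.916). Those most like Hcn4 were Fbxl17 (0.918), S100a4 (0.861), a calcium-binding protein gene, Hjurp (0.859), Tomm70a (0.774) and Hnrnpa0 (0.773). Hcn3 was matched less closely, by Slc17a6 (0.780), the gene for the vesicular glutamate transporter VGLUT2, Prrxl1 (0.764), Luzp2 (0.740), Nudcd2 (0.729) and Ormdl3 (0.725). Among the members themselves r was −0.07 for Hcn2 and Hcn3, 0.27 for Hcn2 and Hcn4 and 0.18 for Hcn3 and Hcn4. The clusters come from 2 shared libraries and a chosen list of clusters, so these values are descriptions.

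The first question was whether the channels differed between CCI and sham over all neurons. Hcn2 stood at 26.8 and 24.5 CPM in Male-Sham and Female-Sham and at 18.0 and 15.9 CPM in Male-CCI and Female-CCI. Both CCI libraries were below both sham libraries, and Hcn2 fell by 0.54 ± 0.08 on the log2 scale (SE, adjusted p = 0.00136, edgeR's quasi-likelihood test on the summed UMIs, Benjamini-Hochberg over all genes). A gene was called when its adjusted p was below 0.05 and its change was larger than 0.5 in log2, and 27.8% of the 17233 genes tested were called here. The change lay close to that limit: it was −0.47 without the cells of shared barcodes, −0.49 without Male-Sham and −0.45 without Female-CCI. Hcn3 had 14.6, 15, 14.4 and 12.9 CPM (log2 change −0.06 ± 0.07, adjusted p = 0.513) and Hcn4 had 10.5, 9.87, 9.20 and 9.99 CPM (−0.03 ± 0.07, adjusted p = 0.715), with overlap between the surgeries for Hcn4. A sum over all neurons mixes classes, and CCI-ind neurons rose from 1.25% and 2.56% of sham neurons to 40.1% and 36.8% of CCI neurons.

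The study marks injured neurons by Sprr1a, a gene switched on in axotomized neurons, and neurons were parted here by a normalised Sprr1a level above 1. Sprr1a+ neurons numbered 42 and 144 in Male-Sham and Female-Sham and 1467 and 1789 in Male-CCI and Female-CCI. Among Sprr1a- neurons, Hcn2 stood at 27 and 25.1 CPM in sham and 29.2 and 23.5 CPM in CCI, which overlapped, with a log2 change of −0.01 ± 0.10 (adjusted p = 0.961, edgeR). Hcn4 had 10.6 and 10.0 CPM in sham and 12.0 and 12.4 CPM in CCI, both CCI libraries above both sham libraries, but the change of 0.22 ± 0.06 did not pass the test (adjusted p = 0.0534, edgeR). Hcn3 had 14.6, 14.9, 14.8 and 13.3 CPM (−0.09 ± 0.07, adjusted p = 0.408, edgeR). No member was called, where 4.48% of all genes were. With any Sprr1a UMI taken as Sprr1a+, the Hcn4 change was 0.60 and called.

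Within the CCI libraries, Hcn2 was lower in the Sprr1a+ cells. Sprr1a+ neurons had 8.56 CPM of Hcn2 in Male-CCI and 8.53 CPM in Female-CCI, against 29.2 and 23.5 CPM in the Sprr1a- neurons of the same libraries. Hcn2 fell by 1.44 ± 0.08 on the log2 scale (adjusted p = 8.4e-07, edgeR with library as a block), the 2 libraries moving alike. Hcn4 fell by 0.58 ± 0.07 (adjusted p = 1.84e-05), from 12.0 and 12.4 CPM in Sprr1a- to 6.84 and 7.62 CPM in Sprr1a+ neurons. At a limit of 5% mitochondrial UMIs the Hcn4 fall was 0.32 and lost its call, and with any Sprr1a UMI taken as Sprr1a+ the Hcn2 change was −0.76. Hcn3 had 14.1 and 12.6 CPM in Sprr1a+ against 14.8 and 13.3 CPM in Sprr1a- neurons and was not called (0.09 ± 0.06, adjusted p = 0.154, and −0.08 when libraries were scaled to total UMIs). Of all genes, 45.6% were called in this comparison, so a call alone sets a gene little apart. Of these calls 45.9% were higher in Sprr1a+ neurons, and 34.0% when libraries were scaled to total UMIs. SGC markers summed to 716 and 1023 CPM in Sprr1a+ and to 1174 and 1239 CPM in Sprr1a- neurons. The fitted changes are relative to TMM scaling, which takes the bulk of genes as unmoved, and in this comparison it places them 0.17 (log2) above the plain CPM ratio.

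Sprr1a+ neurons were spread unevenly over classes, and this comparison sets cells of different classes against each other. The CCI-ind clusters, 97.1% and 96.1% Sprr1a+ in Male-CCI and Female-CCI, had 8.51 and 8.52 CPM of Hcn2, 14.6 and 13.4 CPM of Hcn3 and 7.05 and 7.26 CPM of Hcn4 in these libraries. Hcn4 was higher in the CCI-ind cluster led by Ankrd1, at 16.2 and 18.5 CPM, than in the other CCI-ind clusters, at 4.66 to 8.01 CPM. An unnamed cluster led by Ly6a, also found after CCI, had 13.1 and 12.4 CPM of Hcn4.

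The comparison within a class was possible in NP1, NF1 and NF2, in which enough Sprr1a+ neurons kept their class. PEP5 had only 4 and 11 such cells in the CCI libraries and was not tested in this clustering. In NF1 neurons Hcn2 stood at 82.9 and 72.5 CPM in Sprr1a- sham, at 94.3 and 58.3 CPM in Sprr1a- CCI, and at 9.54 and 5.29 CPM in Sprr1a+ CCI neurons, in male and female. The last pair rests on 43 and 9 UMIs in 55 and 32 cells, and every Sprr1a- value lay far above both. Against sham, Hcn2 fell by 2.90 ± 0.19 on the log2 scale (adjusted p = 4.67e-08, edgeR), and against Sprr1a- NF1 neurons of the same CCI libraries by 3.03 ± 0.19 (adjusted p = 1.09e-23, edgeR with library as a block). In these comparisons 45.5% and 43.8% of all genes were called. Hcn2 in NF1 stayed called under every alternative that could be run, although with any Sprr1a UMI taken as Sprr1a+ the change against sham was −0.67 and within CCI −0.98.

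NF2 neurons moved the same way. Hcn2 stood at 49.9 and 41.9 CPM in Sprr1a- sham, at 44.9 and 32.4 CPM in Sprr1a- CCI, and at 7.15 and 9.57 CPM in Sprr1a+ CCI neurons, the last on 53 and 44 UMIs in 80 and 80 cells. Hcn2 fell by 2.26 ± 0.17 (log2, adjusted p = 2.87e-06, edgeR) against sham and fell by 2.06 ± 0.20 (adjusted p = 3.37e-09, edgeR) within CCI, where 43.6% and 35.6% of all genes were called. In CPM the Sprr1a+ neurons of both NF classes, at 5.29 to 9.57, lay below the SGC-like cells of the CCI libraries at 14.3 and 21.6. Thinned to 2000 UMIs, 0 of 55 and 0 of 32 NF1 Sprr1a+ neurons had an Hcn2 UMI, which allows shares of up to 5.45% and 9.38%. The share was 3.75% of NF2 Sprr1a+ neurons in each library and 2.54% and 2.75% of SGC-like cells. With so few cells positive, this depth could not show whether these neurons differed from SGC-like cells. At full depth in Male-CCI and Female-CCI, Sprr1a+ neurons held 78.18 and 28.12 Hcn2 UMIs per 100 cells in NF1. They held 66.25 and 55.0 in NF2, against 8.475 and 11.01 in SGC-like cells. These neurons were far deeper than the SGC-like cells, so yield per cell and CPM gave opposite orders. Whether their Hcn2 is their own was not tested.

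In NP1 neurons Hcn2 was low in every group. It stood at 11.7 and 10.7 CPM in Sprr1a- sham and at 8.6 and 9.53 CPM in Sprr1a+ CCI neurons, a change of −0.26 ± 0.24 that was not called (adjusted p = 0.385, edgeR, with 41.6% of all genes called). Sprr1a- NP1 neurons of CCI had 21.4 and 13.7 CPM, on 38 and 24 UMIs, and against these it fell by 0.89 ± 0.27 in Sprr1a+ neurons (log2, adjusted p = 0.0216, edgeR, 23.9% called), a call that DESeq2 did not make (adjusted p = 0.609). The NP1 Sprr1a+ neurons came almost wholly from a cluster led by Cd207 and the Sprr1a- ones mainly from a cluster led by Sst, so cluster and Sprr1a status cannot be told apart there.

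What counts as PEP5 after CCI depended on the clustering. PEP5 was the second-best match of the CCI-ind cluster led by Ankrd1, and at a clustering resolution of 0.4 those cells joined a cluster named PEP5, so that 149 and 160 Sprr1a+ PEP5 neurons were counted in Male-CCI and Female-CCI. In that clustering Hcn4 stood at 73.9 and 63.7 CPM in Sprr1a- sham, at 61.4 and 64.8 CPM in Sprr1a- CCI and at 16.4 and 19.1 CPM in Sprr1a+ CCI neurons, in male and female. The Sprr1a+ values lay below all others, and Hcn4 fell by 1.66 ± 0.11 on the log2 scale (adjusted p = 2.38e-14, edgeR) against sham and fell by 1.51 ± 0.12 (adjusted p = 1.87e-37, edgeR) within CCI. Hcn2 stood at 58.7 and 57.7 CPM in sham, 58.6 and 49.2 CPM in Sprr1a- CCI and 13.3 and 14.4 CPM in Sprr1a+ CCI neurons (−1.78 ± 0.12 against sham, adjusted p = 8.78e-15, edgeR). Hcn3 fell by 0.60 ± 0.15 against sham (adjusted p = 0.000958, edgeR), from 23.4 and 19.3 to 11.9 and 10.8 CPM. Of all genes, 46.4% were called against sham and 43.3% within CCI. The Sprr1a+ neurons in that clustering were mainly the cells of the Ankrd1 cluster, and the Sprr1a- ones mainly cells of the other clusters, led by Nkx6-2 or Pnoc. Cluster and Sprr1a status therefore cannot be told apart there. With doublets kept, where 44.8% of all genes were called against sham, the changes were −1.67 for Hcn2, −1.48 for Hcn4 and −0.45 for Hcn3, the last not called, whereas in the clustering used elsewhere here, with any Sprr1a UMI taken as Sprr1a+, they were −0.10, −0.15 and −0.02 and none was called.

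The difference between the classes was tested itself, in the clustering used elsewhere here. The fall of Hcn2 against sham was larger in NF1 than in NP1 by 2.69 ± 0.31 (log2 difference −2.69, adjusted p = 5.17e-14, edgeR interaction) and larger in NF2 than in NP1 by 2.04 ± 0.28 (−2.04, adjusted p = 1.1e-06), where 32.0% and 23.8% of all genes were called. NF2 and NF1 differed by 0.65 ± 0.29, which did not pass (adjusted p = 0.121, edgeR interaction), with 17.2% of all genes called. In Sprr1a- sham NP1 neurons Hcn2 began at 11.7 and 10.7 CPM, close to its level in the Sprr1a+ neurons of NP1, NF1 and NF2. A fall of the NF size thus had little room in NP1, and the test cannot part a smaller response from a lower start.

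Within NF1, the loss was followed by cluster. In the Ntng1 cluster, 61.6% of Male-CCI and 48.4% of Female-CCI cells were Sprr1a+, and Hcn2 stood at 70.1 and 69.4 CPM in sham, at 76.1 and 42.4 CPM in Sprr1a- CCI and at 9.56 and 5.05 CPM in Sprr1a+ CCI cells. In the Pvalb cluster, only 6.06% and 8.33% of CCI cells were Sprr1a+, and over all its cells Hcn2 stood at 110.7 and 82.5 CPM in sham and 117.0 and 77.9 CPM in CCI, which overlapped. The NF1 result therefore rests on the Ntng1 cluster. That cluster gave 53 of 55 and 30 of 32 Sprr1a+ NF1 neurons of Male-CCI and Female-CCI, but 33 of 64 and 32 of 54 Sprr1a- ones. Comparisons of Sprr1a+ with Sprr1a- NF1 neurons thus mix cluster with Sprr1a status, for the other genes below as well. SGC markers were low in NF1 neurons throughout, summing to 65.8 and 170.1 CPM in sham and 158 and 79.3 CPM in Sprr1a+ CCI neurons.

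Hcn4 and Hcn3 in these classes were read from fewer molecules. In NF1, Hcn4 had 6.65 and 5.43 CPM in Sprr1a- sham, 7.81 and 6.41 CPM in Sprr1a- CCI and 1.78 and 1.76 CPM in Sprr1a+ CCI neurons, the last on 8 and 3 UMIs. It fell by 1.44 ± 0.41 (log2, adjusted p = 0.00845, edgeR) against sham and by 1.74 ± 0.47 (adjusted p = 0.00138, edgeR) within CCI. In NP1, Hcn4 fell by 0.92 ± 0.28 against sham (adjusted p = 0.00464, edgeR), from 9.08 and 11.5 to 5.73 and 4.45 CPM. In NF2 it had 4.10 and 3.65 CPM in sham and 3.10 and 6.31 CPM in Sprr1a+ neurons, which overlapped (0.44 ± 0.38, adjusted p = 0.365, edgeR), and the difference between NF2 and NF1 was called (1.76 ± 0.55, adjusted p = 0.0275, edgeR interaction). In these 3 classes Hcn3 was called only in NF1 against sham, where it fell by 0.70 ± 0.24 (adjusted p = 0.0255, edgeR), from 14.1 and 13.8 to 7.77 and 4.70 CPM. Within the Ntng1 cluster Hcn3 had 18.4 and 16.6 CPM in sham and 19.3 and 9.755 CPM in Sprr1a- CCI cells. In Sprr1a+ CCI cells of that cluster Hcn3 had 7.78 and 5.055 CPM, on 35 and 8 UMIs. In NF2 its change against sham was 0.02, and −0.22 when scaled to total UMIs. Without Male-Sham or Male-CCI the NF1 Hcn4 fall against sham was 1.28 or 1.49 and not called, without Male-Sham or Female-CCI neither was that of Hcn3 (adjusted p = 0.0783 and 0.114), and without Female-Sham or Female-CCI neither was that of Hcn4 in NP1 (adjusted p = 0.0565 and 0.0607). DESeq2 did not call Hcn4 in NP1 (adjusted p = 0.171) or Hcn4 and Hcn3 in NF1 (adjusted p = 0.137 and 0.222) against sham, nor Hcn4 in NF1 within CCI (adjusted p = 0.378). Scaling moved the NF classes most, with the fitted changes 0.32 (NF1) and 0.23 (NF2) above the plain CPM ratios on the log2 scale. Against sham, 47.7% of the calls were higher in NF1 and 48.5% in NF2, and 25.8% and 31.6% when libraries were scaled to total UMIs. Within CCI these shares were 47.8% and 47.0%, and 26.5% and 31.8%.

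**Figure D2:**
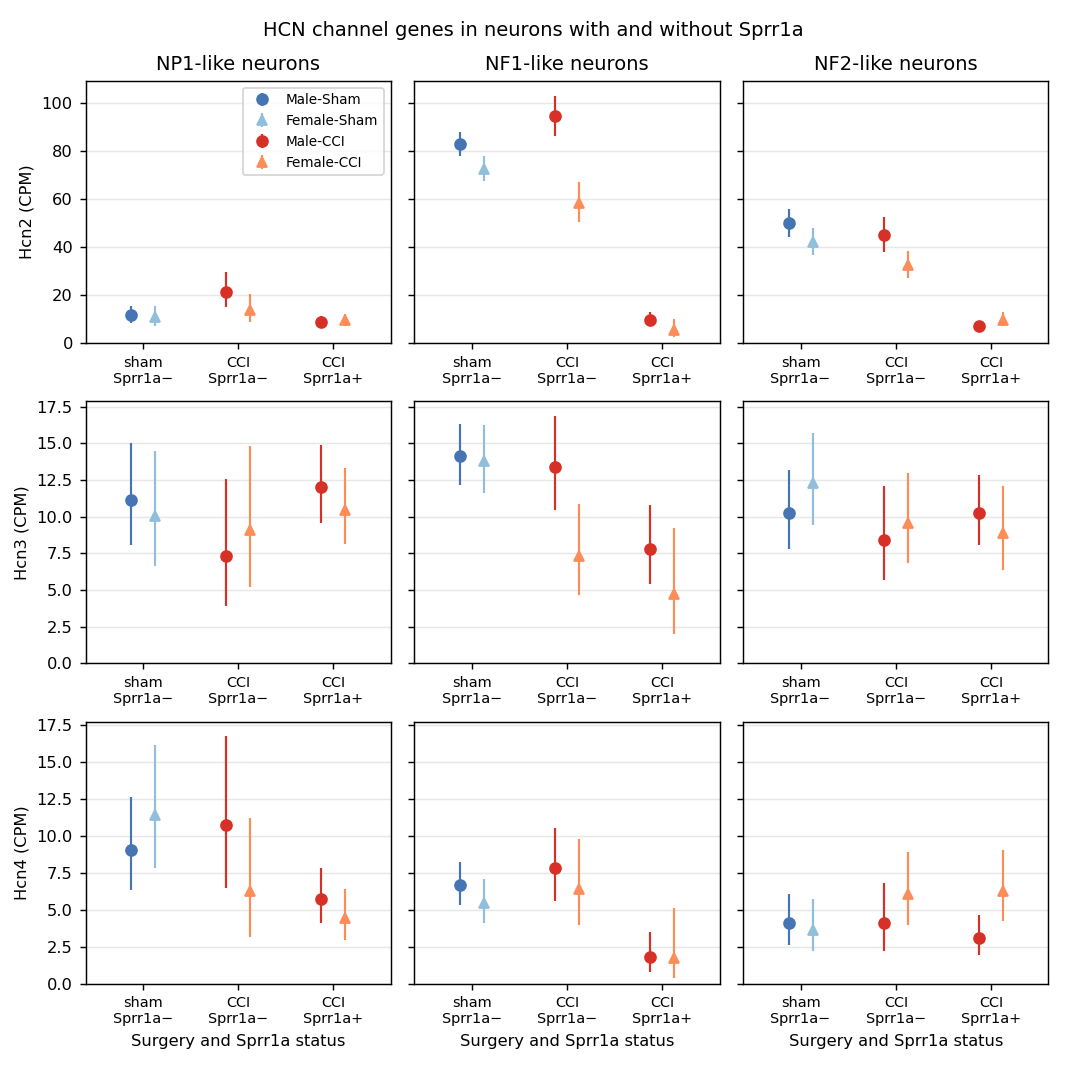
Level of Hcn2, Hcn3 and Hcn4 in CPM (vertical axes, linear, from 0) in NP1, NF1 and NF2 neurons, split by surgery and Sprr1a status (horizontal axis), each point 1 library with the exact Poisson 95% interval of its UMI count. In NF1 and NF2 the Sprr1a+ neurons have 5.29 to 9.57 CPM of Hcn2 against 32.4 to 94.3 CPM in the Sprr1a- neurons, whereas in NP1 the values lie between 8.6 and 21.4 CPM.

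Sprr1a- neurons were then compared between CCI and sham class by class, the question being what happens in neurons without the injury marker. Of 30 tests, 3 genes in 10 classes, 1 was called. Hcn4 rose in PEP3/4 neurons by 0.54 ± 0.12 (log2, adjusted p = 0.00906, edgeR), from 9.86 and 9.32 CPM in Male-Sham and Female-Sham to 12.5 and 15.4 CPM in Male-CCI and Female-CCI. Both CCI libraries lay above both sham libraries, though DESeq2 gave an adjusted p of 0.0657, and without Female-CCI the change was 0.37 (adjusted p = 0.155, edgeR). Among the PEP3/4 clusters, the one led by Ccl21a had 9.59 and 9.98 CPM in sham and 14.7 and 21.1 CPM in CCI over all its cells. That cluster held 117 of 327 PEP3/4 cells in Male-CCI and 172 of 492 in Female-CCI, and the clusters were not tested apart. SGC markers in PEP3/4 neurons summed to 2779 and 3085 CPM in sham and to 2151 and 2349 CPM in CCI. In NP2, Hcn4 had 5.70 and 5.65 CPM in sham and 8.71 and 7.02 CPM in CCI, with an adjusted p of 0.0449 (edgeR) but a change of 0.45 ± 0.15, below the size limit. In PEP5, where Hcn4 is highest, the change was −0.13 ± 0.09 (adjusted p = 0.416, edgeR).

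Hcn2 in Sprr1a- NF1 neurons, at 82.9 and 72.5 CPM in sham and 94.3 and 58.3 CPM in CCI, changed by 0.05 ± 0.22 (adjusted p = 0.952, edgeR), and in Sprr1a- NF2 neurons by −0.21 ± 0.15 (adjusted p = 0.510). In cLTMR neurons it had 35.8 and 34.0 CPM in sham and 43.0 and 41.9 CPM in CCI, without overlap, a change of 0.23 ± 0.08 that did not pass (adjusted p = 0.0995). Few genes of any kind were called in these comparisons: 3.97% in NP1, 4.47% in NP2, 2.67% in NP3, 5.32% in PEP1, 4.35% in PEP2, 3.57% in PEP3/4, 3.35% in PEP5, 1.12% in NF1, 1.93% in NF2 and 1.72% in cLTMR. The comparisons against sham share their sham neurons in each class, so they are not independent of each other.

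**Figure D3:**
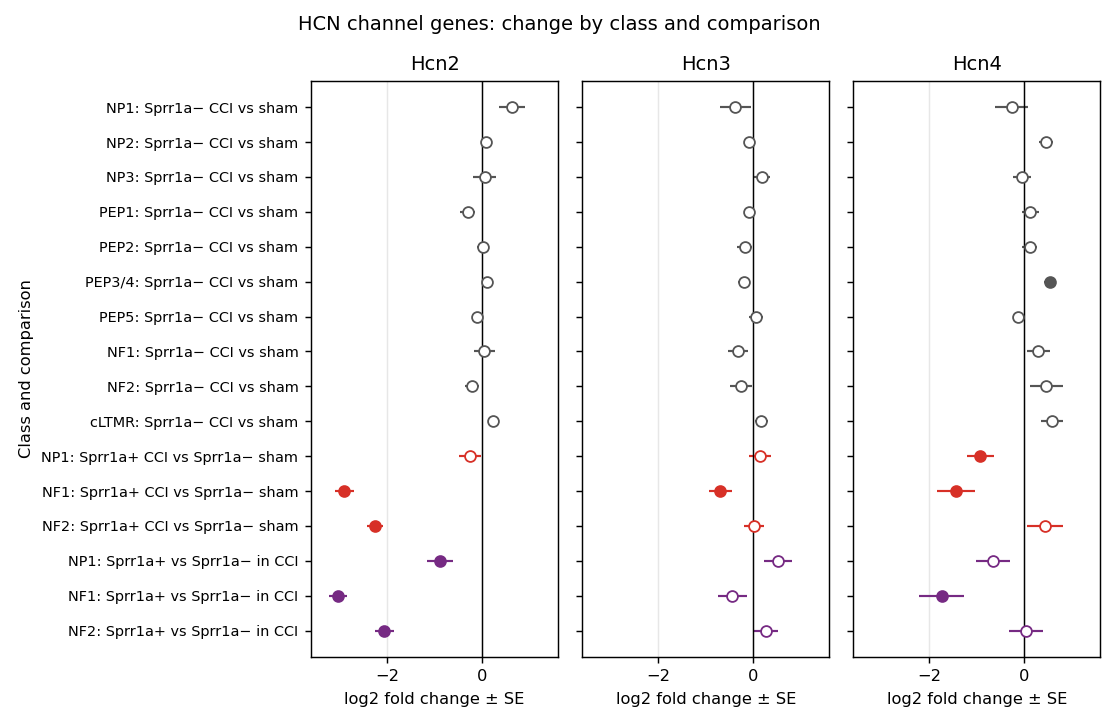
Log2 fold change of Hcn2, Hcn3 and Hcn4 (horizontal axes, bars 1 SE, filled points called) for each class and comparison: grey for Sprr1a- neurons of CCI against sham, red for Sprr1a+ CCI against Sprr1a- sham, purple for Sprr1a+ against Sprr1a- within CCI. The 4 filled Hcn2 points in NF1 and NF2 lie between −3.03 and −2.06, and the filled grey point is Hcn4 in PEP3/4 at 0.54.

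HCN channels work with partner proteins and with the proteins that make, break down and sense cyclic AMP, and they have relatives among channels with the same cyclic nucleotide-binding domain. The 58 genes of 5 such lists were followed. In Sprr1a- neurons of CCI against sham, none of the 50 genes tested was called by edgeR and none by DESeq2. At an unadjusted p under 0.05 there were 12 by edgeR, where 5617 of all 16407 genes were below it, and 9 of 57 by DESeq2. In Sprr1a+ against Sprr1a- neurons within CCI, 8 of 50 rose and 27 fell, and the median log2 change was −0.84, against 20.9% higher, 24.7% lower and a median of −0.00 for all 16241 genes. Scaled to total UMIs, 7 rose and 30 fell, where 2577 of all 16241 genes rose and 5003 fell. Over all neurons, CCI against sham, 7 of 51 rose and 14 fell, where 15.2% of all genes rose and 12.7% fell.

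Of the HCN partners, Pex5l encodes TRIP8b, the auxiliary subunit that governs the delivery of HCN channels to the surface and weakens their response to cyclic AMP. It had 27.5 and 23.6 CPM in Sprr1a+ and 57.2 and 55.4 CPM in Sprr1a- neurons of Male-CCI and Female-CCI, a fall of 0.97 ± 0.05 (log2, adjusted p = 1.06e-07, edgeR). In NF1 it fell by 0.74 ± 0.14 against sham (adjusted p = 0.000538), from 77.6 and 86.8 to 43.3 and 31.1 CPM, whereas in NF2 it stood at 20.5 and 25.7 CPM in sham and 22.5 and 18.0 CPM in Sprr1a+ neurons (0.07 ± 0.18, adjusted p = 0.761). Kctd3, whose product binds HCN3, fell by 0.56 ± 0.06 over all CCI neurons (adjusted p = 6.6e-06), from 18.1 and 17.3 to 10.8 and 10.6 CPM. Apba2, an adaptor of synaptic membranes, went the other way, at 245 and 238 CPM in Sprr1a+ against 58.7 and 65.9 CPM in Sprr1a- neurons (2.13 ± 0.06, adjusted p = 8.91e-07). In all, 1 of the 6 partners tested rose and 3 fell, the last being Grasp.

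Of the genes of cyclic AMP synthesis, 1 of 10 rose and 5 fell. Adcy1, a calcium-stimulated adenylyl cyclase, had 2.76 and 2.34 CPM in Sprr1a+ against 11.9 and 10.4 CPM in Sprr1a- neurons (−1.95 ± 0.08, adjusted p = 6.72e-09, edgeR). In NF1 it fell from 61.1 and 60.3 CPM in sham to 7.99 and 6.46 CPM in Sprr1a+ neurons (−2.68 ± 0.17, adjusted p = 2.03e-08), and in NF2 from 31.4 and 27.9 to 2.70 and 5.87 CPM (−2.66 ± 0.26, adjusted p = 1.59e-05). Adcy7 fell by 2.22 ± 0.12 and Adcy8 by 2.80 ± 0.30 over all CCI neurons. Adcy4 rose (4.02 ± 0.57) but stayed at 0.30 and 0.31 CPM.

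The phosphodiesterases, which break down cyclic nucleotides, split: 4 of 16 rose and 9 fell over all CCI neurons. Pde11a had 2.82 and 2.90 CPM in Sprr1a+ and 41.6 and 44.7 CPM in Sprr1a- neurons (−3.74 ± 0.06, adjusted p = 6.45e-12, edgeR), and Pde4c and Pde8b fell by 2.71 and 1.65. Pde7a rose by 1.75 ± 0.05, from 13.5 and 14.1 to 42.5 and 39.6 CPM. In NF1 the exchange was sharp: against sham, Pde4a went from 15.6 and 13.9 CPM to 0.22 and 0.59 CPM (−5.13 ± 0.48, adjusted p = 8.78e-07), while Pde1a, a calcium-dependent enzyme, went from 0.39 and 2.91 to 41.7 and 61.1 CPM (5.32 ± 0.69, adjusted p = 0.00859). Pde4b rose in both, by 1.5 ± 0.14 in NF1 and 3.48 ± 0.29 in NF2. Against sham, Pde4a also fell in NF2 (−1.94 ± 0.24) but rose in NP1 (1.81 ± 0.62), a rise that DESeq2 did not call.

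Of 8 cyclic AMP effectors, 1 rose and 3 fell over all CCI neurons. Prkar2b, a regulatory subunit of protein kinase A, had 30.2 and 31.0 CPM in Sprr1a+ and 119.3 and 109.5 CPM in Sprr1a- neurons (−1.73 ± 0.04, adjusted p = 5.57e-10, edgeR), and the catalytic subunit gene Prkacb fell by 0.88 ± 0.03. Rapgef3 rose by 3.29 ± 0.31 but stayed at 0.98 and 1.08 CPM in Sprr1a+ neurons. In NF1 against sham, where 21.7% of all genes rose and 23.8% fell, 5 of 7 effectors fell and none rose, among them Prkar1a, from 1006 and 990 CPM to 331 and 322 CPM (−1.28 ± 0.08, adjusted p = 1.79e-08). Prkar1a was not called against sham in NF2 (−0.15 ± 0.08) or NP1 (0.29 ± 0.09). Of 10 related channels with a cyclic nucleotide-binding domain, 1 rose and 7 fell over all CCI neurons. Kcnh7 and Kcnh2, which encode ERG potassium channels, are examples from NF1: Kcnh7 fell from 269 and 287 CPM in sham to 33.3 and 22.9 CPM (−2.89 ± 0.13, adjusted p = 1.67e-09), and Kcnh2 from 70.3 and 61.3 to 14.6 and 13.5 CPM (−1.87 ± 0.15, adjusted p = 2.52e-07).

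By class, 7 of 38 list genes rose and 18 fell in NF1 against sham (median −0.61, against −0.06 for all genes, of which 21.7% rose and 23.8% fell), 6 of 36 rose and 17 fell in NF2 (median −0.47, against −0.02, with 21.1% and 22.4%), and 11 of 29 rose and 9 fell in NP1 (median 0.29, against 0.01, with 21.1% and 20.5%). With any Sprr1a UMI taken as Sprr1a+, 7 of 39 rose and 6 fell in NF1, where 2290 of all genes were called. DESeq2 called 6 higher and 13 lower of 53 in NF1 and 9 higher and 6 lower of 48 in NP1. Of all genes it called 2255 higher and 1860 lower in NF1 and 1787 higher and 1578 lower in NP1. Within CCI the counts were 7 up and 16 down of 34 in NF1 (20.9% and 22.9% of all genes), 6 up and 12 down of 34 in NF2 (16.7% and 18.9%), and 6 up and 7 down of 25 in NP1 (11% and 12.9%), where a limit of 5% mitochondrial UMIs left 0 up and 4 down of 23. At that limit 810 of all genes were called in NP1, against 2615 before. Scaled to total UMIs, the counts within CCI were 4 up and 20 down in NF1 and 4 up and 17 down in NF2. Of all genes, 1423 were then up and 3947 down in NF1, and 1263 up and 2712 down in NF2. DESeq2 gave 4 up and 7 down of 50 in NF1, 3 up and 8 down of 52 in NF2 and 2 up and 5 down of 48 in NP1. Of all genes it gave 1190 up and 881 down in NF1, 932 and 878 in NF2, and 432 and 545 in NP1. The NF1 changes of list genes also hold the mix of the Ntng1 and Pvalb clusters, and the clusters were not tested apart. In Sprr1a- neurons of CCI against sham, between 0 and 1 list gene was called in each of the 10 classes.

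**Figure D4:**
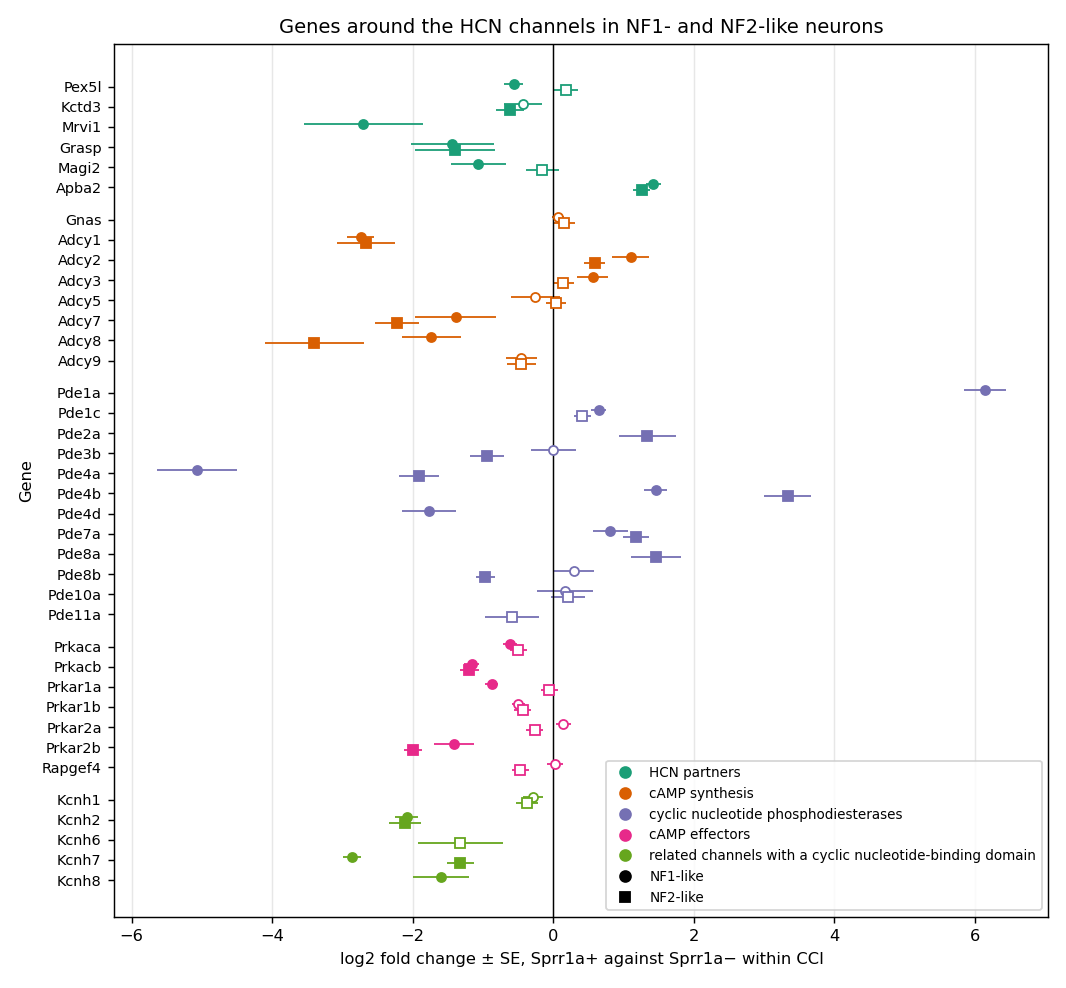
Log2 fold change with 1 SE (horizontal axis) of the list genes tested (vertical axis, coloured by list) between Sprr1a+ and Sprr1a- neurons within CCI, with circles for NF1, squares for NF2 and filled symbols for called genes. Most called genes lie left of 0, with Kcnh7 at −2.87 and Adcy1 at −2.74 in NF1, whereas Pde1a in NF1 lies at 6.15 and Apba2 lies right of 0 in both classes.

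The position of a gene bears on what a 3′ count holds. Hcn2 (ENSMUSG00000020331, chromosome 10, 79716634 to 79736108, plus strand, GRCm38 with GENCODE vM21) has up to 9 exons, and its 3′ end lies 15 bases from that of Polrmt on the other strand. Polrmt had 4.90 to 5.41 CPM in the neurons of the 4 libraries. Whether its reads enter the Hcn2 count was not tested. Hcn3 (ENSMUSG00000028051, chromosome 3, 89146074 to 89160196, minus strand) has 8 exons and overlaps Pklr on the opposite strand, which had 0 to 2 UMIs in the neurons of a library. Hcn4 (ENSMUSG00000032338, chromosome 9, 58823412 to 58863175, plus strand) has 8 exons and overlaps no annotated gene.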

How the data were processed

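The authors deposited raw UMI counts per gene and cell for each of the 4 libraries (10x Genomics 3′ v3, GFP+ cells, reads aligned to mm10 and counted by Cell Ranger, for which the labels name version 2.1.1). The members, gene lists and comparisons were chosen with earlier results of these data known. Cells with at least 1500 genes and at most 10% mitochondrial UMIs were kept. Scrublet's own threshold marked 0 to 121 cells per library, too few to have worked, so the highest-scoring cells were removed instead, as many per library as the study removed. Cells were integrated and clustered with Seurat 5.3.0 (3000 genes, 20 components, resolution 0.8) and clusters were named from fixed marker lists. Sprr1a+ means a natural-log normalised value (per 10000 UMIs) above 1. UMIs were summed per library and set of cells, and the sums were tested with edgeR 4.0.16 (robust quasi-likelihood, filterByExpr, TMM), in R 4.3.3. Classes with at least 10 cells in every library were tested. The Sprr1a comparisons within CCI by class and the differences between classes were added after seeing the data. Named list genes are, per list and comparison, up to 4 called genes with the largest change in the same direction in both sexes, plus Pex5l and Kctd3 always. Every statistic was tested on simulated data. CPM intervals are exact Poisson at 95% and cover counting error only. P-values of CCI against sham measure the spread between 2 libraries per surgery, each from 5 mice. Those within CCI measure how alike the difference between Sprr1a+ and Sprr1a- neurons was in the 2 CCI libraries. For both kinds edgeR pools the spread over genes, so the size of a very small p-value rests on that pooling. Within CCI, DESeq2 called 2071 genes in NF1 and 1810 in NF2, where edgeR called 4844 and 4024. Alternatives were DESeq2 1.42.0, total-count scaling, no filter, other cell filters, Sprr1a limits, clusterings and the replicate block.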

Additional observations from a re-analysis of the deposited data

Results flagged for a closer look

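The change of Sprr1a+ CCI neurons against Sprr1a- sham neurons was compared between the 3 classes that allowed it, by an interaction term in edgeR on the summed UMIs, for each of the 3 genes. Of the 9 differences, 5 were called, where 32.0% of all genes were called for NF1 minus NP1, 23.8% for NF2 minus NP1 and 17.2% for NF2 minus NF1. For Hcn2, the difference was −2.69 ± 0.31 (log2, SE, adjusted p = 5.17e-14) for NF1 minus NP1 and −2.04 ± 0.28 (adjusted p = 1.1e-06) for NF2 minus NP1. For Hcn3, it was −0.91 ± 0.35 (adjusted p = 0.0301) for NF1 minus NP1. For Hcn4, it was 1.30 ± 0.48 (adjusted p = 0.0409) for NF2 minus NP1 and 1.76 ± 0.55 (adjusted p = 0.0275) for NF2 minus NF1. The Hcn2 differences were called under every alternative that could be run, from −3.03 to −0.61 for NF1 minus NP1 and from −2.21 to −1.05 for NF2 minus NP1. The Hcn3 and Hcn4 differences rest on few UMIs and each lost its call under at least 1 alternative, for example without shared barcodes for Hcn3 in NF1 minus NP1 (adjusted p = 0.0578) and for Hcn4 in NF2 minus NF1 (adjusted p = 0.0562). In NP1 the Sprr1a+ and the Sprr1a- neurons came mainly from different clusters. Sham NP1 neurons also began close to the Hcn2 level of Sprr1a+ neurons, so the Hcn2 differences cannot be told apart from the starting levels.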

How the results depend on the processing

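The libraries pair by sex only, and over 15640 genes the male minus female differences in sham and in CCI correlated at r = 0.57. With sex as a replicate block no call on Hcn2, Hcn3 or Hcn4 changed: Hcn2 over all neurons was −0.54 (adjusted p = 9.84e-05, edgeR), Hcn2 in NF1 against sham −2.95 and Hcn4 in PEP3/4 0.54. Leaving out 1 library at a time gave −0.64 to −0.45 for Hcn2 over all neurons, −0.15 to 0.018 for Hcn3 and −0.089 to 0.021 for Hcn4. In Sprr1a- neurons it gave −0.18 to 0.14 for Hcn2, and 325 to 704 genes called against 735. Against sham in NF2 it gave −0.14 to 0.15 for Hcn3 and −0.039 to 0.89 for Hcn4, within CCI in NF2 −0.16 to 0.18 for Hcn4, and in Sprr1a- NF1 neurons −0.37 to 0.30 for Hcn2. Without shared barcodes, Hcn2 over all neurons was −0.47 and not called, Hcn2 in Sprr1a- neurons 0.077, Hcn3 in NF1 within CCI 0.077, Hcn3 in NF2 against sham −0.082 and Hcn4 in NF2 within CCI −0.14. With total-UMI scaling, Hcn2 in Sprr1a- neurons was 0.013, Hcn3 in Sprr1a+ against Sprr1a- neurons −0.079, Hcn3 in NF2 against sham −0.22 and Hcn4 in NF2 within CCI −0.13. With any Sprr1a UMI counted as Sprr1a+, Hcn2 in Sprr1a- neurons was 0.074, Hcn4 there 0.60 and called, Hcn3 within CCI −0.027, in NF1 within CCI 0.75 and in NF2 against sham −0.093, the NF2 minus NF1 difference of Hcn2 −0.40, and 4761 genes were called within CCI against 7401. With doublets kept, Hcn3 against sham was −0.068 in NP1 and −0.19 in NF2, Hcn3 in NF2 within CCI −0.061 and Hcn2 in Sprr1a- NF1 neurons −0.017. At 5% mitochondrial UMIs, Hcn4 within CCI was −0.32 and not called, and Hcn3 in NF2 against sham −0.018. Hcn4 in NF2 within CCI was −0.022 with no replicate block and −0.013 when clustered without the members and lists. Sham levels of Hcn2 moved to 68.6 CPM (5% mitochondrial UMIs) and 94.7 CPM (no shared barcodes) in NF1, to 58.1 CPM (no shared barcodes) and 53.9 CPM (mean per cell) in NF2, and in PEP5 to 54.8 CPM (doublets kept), 52.2 CPM (5% mitochondrial UMIs), 57.3 CPM (no shared barcodes), 64.1 CPM (clusters with glial RNA left out) and 51.3 CPM (mean per cell), and Hcn4 in PEP5 to 59.9 CPM (5% mitochondrial UMIs). Over all alternatives the number of genes called in Sprr1a- neurons went from 3 to 360 in NF1 (134 as first fitted), 34 to 775 in NF2 (217), 52 to 782 in NP1 (387), 282 to 700 in NP2 (559), 117 to 476 in NP3 (312), 378 to 918 in PEP1 (704), 181 to 645 in PEP2 (533), 189 to 640 in PEP3/4 (479), 194 to 624 in PEP5 (410) and 33 to 304 in cLTMR (214). In Sprr1a+ neurons it went from 2290 to 6249 in NF1 against sham (5505), and within CCI from 786 to 5370 in NF1 (4844), 1810 to 4276 in NF2 (4024) and 810 to 2835 in NP1 (2615). The cause of these moves was not tested. Of the other values that answer a comparison, recomputed under each alternative, 237 kept their direction and their side of the threshold or stayed within the spread of the libraries. The UMI counts limit Hcn3 and Hcn4 in Sprr1a+ NF1 neurons, where a library held as few as 3 UMIs.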
